A study of Mus musculus with 4 samples.

Results

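Caveolae and the vesicles that carry cargo across the endothelium were followed through 10 genes in the RNA of mouse brain endothelial cells at postnatal day 0. The genes were chosen by name. They encode the caveolins (Cav1, Cav2), the cavins (Cavin1, Cavin2, Cavin3), the proteins that shape or anchor the caveolar neck (Ehd2, Ehd4, Pacsin2), the diaphragm protein Plvap and the transferrin receptor Tfrc. All 10 are among the 21578 genes of the deposited tables, where Cavin1, Cavin2 and Cavin3 are listed under the older symbols Ptrf, Sdpr and Prkcdbp. All 10 also passed edgeR's filter on low counts, which left 15909 genes to be tested. Both genotypes were on the C57BL/6 strain. Pd1fl/fl mice carry floxed Pd1 alleles, the gene of the immune checkpoint receptor PD-1. In Pd1cKO-Tie2 mice the same alleles are combined with Tie2-Cre, a transgene active in the endothelial lineage and, as the study states among its limits, also in blood-forming cells and some myeloid cells. The study's methods describe endothelial cells sorted from cerebral cortex with antibodies against CD31 and CD45, and do not state whether the sequenced RNA came before or after culture. The sequencing compared the genotypes with 2 libraries each. Nothing in the labels says that the libraries came from separate or from pooled animals, so the p-values measure the spread between these libraries, which may be technical.

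A caveola is a small flask-shaped pit of the plasma membrane. Caveolin oligomers and an outer coat of cavins form its bulb, and EHD proteins and pacsins hold its neck. Capillaries of the brain are known for few caveolae and little transcytosis, a restraint kept up by the lipid transporter Mfsd2a, and immature or leaky brain vessels are known to carry Plvap. Transferrin bound to the transferrin receptor, in contrast, is taken up through clathrin-coated pits and is the usual example of receptor-mediated transport of iron into the brain.

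The libraries held between 13715837 and 24147311 counts, and library 1 of Pd1cKO-Tie2 was the deepest. Levels are given as CPM, the counts scaled to the library total and edgeR's TMM factors, and, where genes are compared with each other, as CPM per kb of annotated exon. Pdcd1, the gene of PD-1, had 32 counts in Pd1fl/fl library 1 and 0 counts in the other 3 libraries, so it was not tested and its loss could not be checked against Pd1fl/fl library 2. The summed level of 14 endothelial markers was 12556 and 11526 CPM in the Pd1fl/fl libraries and 14942 and 15909 CPM in the Pd1cKO-Tie2 libraries, and all 14 were higher in both Pd1cKO-Tie2 libraries than in both Pd1fl/fl libraries, with a median log2 difference of 0.36. Of 10 microglia and macrophage markers, 8 were lower in both Pd1cKO-Tie2 libraries, and their summed level was 1989, 2414, 733 and 1681 CPM in the order Pd1fl/fl library 1, Pd1fl/fl library 2, Pd1cKO-Tie2 library 1 and Pd1cKO-Tie2 library 2. Pericyte and smooth muscle markers summed to 5750 CPM in Pd1fl/fl library 1 and to between 3754 and 3855 CPM in the other 3, with 0 to 3 of 12 at 0. Of 7 astrocyte and radial glia markers, 5 were lower without overlap, and the 7 summed to 845 and 803 CPM in Pd1fl/fl and to 534 and 385 CPM in Pd1cKO-Tie2. Over all tested genes, 17.7% were higher and 18.1% lower without overlap between the genotypes. The counts of markers were not tested against these shares. Neutrophil markers summed to 912 CPM in Pd1fl/fl library 1 and to at most 55.4 CPM elsewhere. That library stood apart, and the results for the 10 genes are given with and without it. In bulk RNA, fewer cells of a type and less RNA per cell cannot be told apart.

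**Figure D1:**
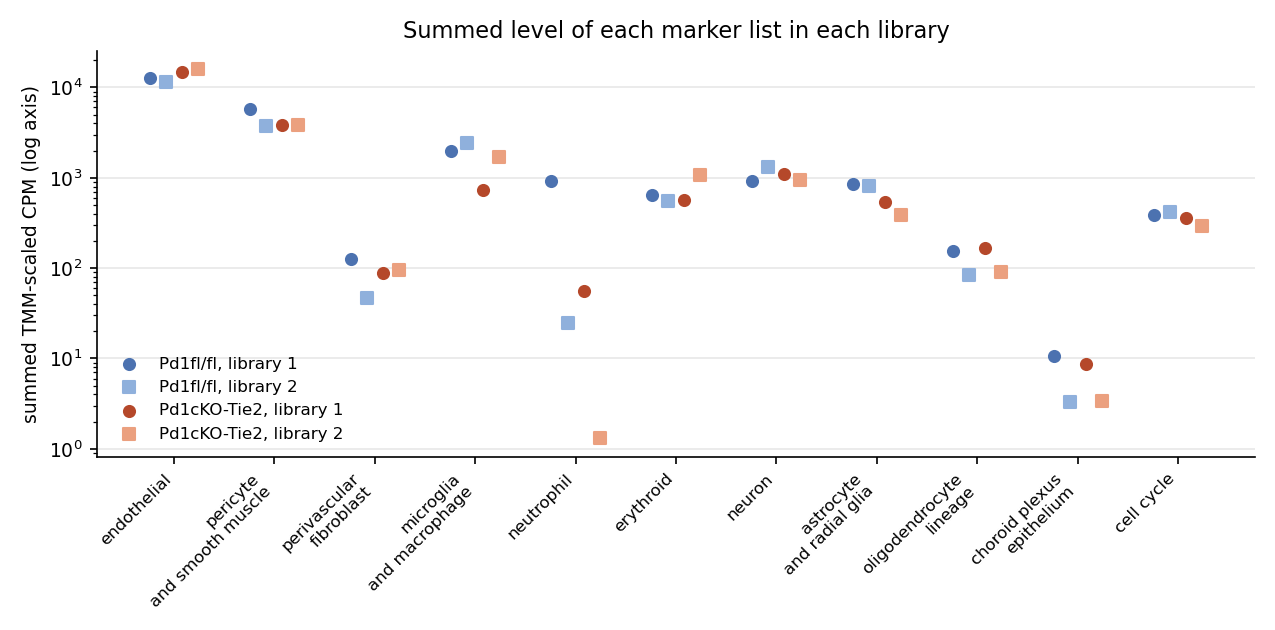
Summed TMM-scaled CPM of each marker list (log axis) in the 4 libraries, blue for Pd1fl/fl and red for Pd1cKO-Tie2, circles for library 1 and squares for library 2. The endothelial sums of Pd1cKO-Tie2, 14942 and 15909, lie above those of Pd1fl/fl, and the neutrophil sum of Pd1fl/fl library 1, 912, lies above the other 3.

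The 10 genes spanned a wide range of levels. Cavin1 was the highest in every library, with 612 and 485 CPM per kb in the Pd1fl/fl libraries and 681 and 819 in the Pd1cKO-Tie2 libraries, which placed it above 99.7% of the tested genes. Plvap was the lowest in every library, with 2.16 and 2.97 CPM per kb in Pd1fl/fl against 12.3 and 4.71 in Pd1cKO-Tie2. By the mean of the 4 libraries the order was Cavin1 (649 CPM per kb), Tfrc (112), Cav1 (82.2), Cavin2 (53.5), Cav2 (36.0), Ehd4 (33.2), Ehd2 (25.0), Cavin3 (23.4), Pacsin2 (17.0) and Plvap (5.52). Over the 4 libraries the ranges of neighbours in this order were apart only at the steps from Cavin1 to Tfrc and from Cavin2 to Cav2. Within each library, Cav1 was also above Cavin2, Cavin3 above Pacsin2 and Pacsin2 above Plvap, while the order of the 4 other pairs of neighbours held in 3 of the 4 libraries. All 10 genes kept their place in the order when the length of the longest transcript was used instead. The coat was thus uneven in RNA. Within a library, Cavin1 was 7.36 to 8.96 times Cav1 and 9.46 to 13.9 times Cavin2, and Cavin2 was 1.90 to 2.75 times Cavin3, all per kb. None of these ratios separated the genotypes.

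**Figure D2:**
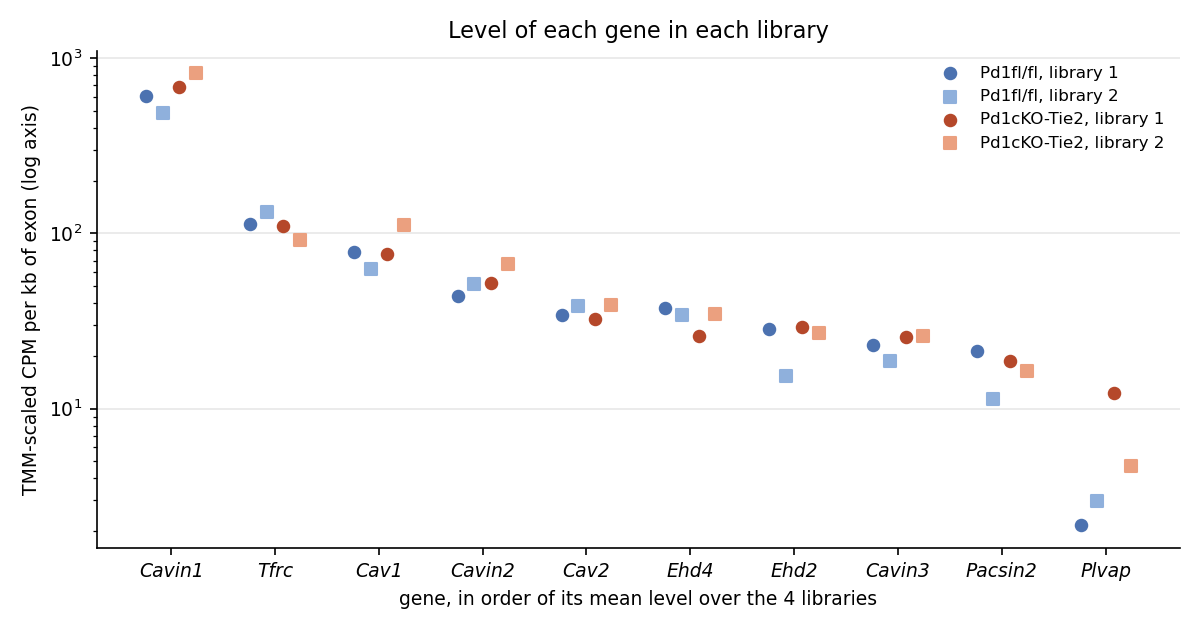
Level of each gene in TMM-scaled CPM per kb of exon (log axis) in the 4 libraries, with genes ordered by their mean level, blue for Pd1fl/fl and red for Pd1cKO-Tie2. Cavin1 lies between 485 and 819, above every other gene in each library, and Plvap between 2.16 and 12.3.

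The question put to these genes was whether their RNA differed between endothelial cells with and without the Tie2-Cre deletion of Pd1. Plvap was higher in Pd1cKO-Tie2 and was the only one of the 10 to pass the study's criterion, a fold change of at least 2 with an unadjusted p of 0.05 or less. Cavin1 was higher by less than that fold, with an unadjusted p under 0.05. No member fell by this criterion. The criterion called 4.02% of all tested genes, and 1.41% as higher in Pd1cKO-Tie2. An unadjusted p of 0.05 or less was reached by 2 of the 10 genes and by 6.39% of all tested genes. For 4 genes (Cavin1, Cavin2, Cavin3 and Plvap) the lower Pd1cKO-Tie2 value exceeded the higher Pd1fl/fl value, as in 17.7% of all tested genes. For 1 gene (Tfrc) the reverse held, as in 18.1%. These shares were not tested, and 10 genes are too few to read them as differing from the background. The fitted log2 difference was above 0 for 7 of the 10 genes and below 0 for 3, with a median of 0.31, where the median of all tested genes was -0.0038. Adjusted over every tested gene by the Benjamini-Hochberg method, 0 members had an adjusted p under 0.05 in edgeR, as had 0 of all 15909 tested genes. The smallest adjusted p of any gene was 0.735 in that fit (edgeR), so the adjusted p-values given here do not set these genes apart from the rest. In DESeq2 on all genes with a count 0 members had an adjusted p under 0.05, and 0.672% of genes had one. Both tools gave the same 2 genes, Cavin1 and Plvap, an unadjusted p of 0.05 or less. Without Pd1fl/fl library 1, 0 of the 10 genes were called, and their log2 differences were 0.58 (Cav1), -0.10 (Cav2), 0.63 (Cavin1), 0.21 (Cavin2), 0.47 (Cavin3), 1.52 (Plvap), -0.38 (Tfrc), 0.88 (Ehd2), -0.16 (Ehd4) and 0.64 (Pacsin2), with a median of 0.53. Without Pd1fl/fl library 2 the median was 0.11 and without Pd1cKO-Tie2 library 2 it was 0.17.

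These counts moved with the scaling. When libraries were scaled to the summed endothelial markers, the median of all tested genes shifted by -0.359 on the log2 scale, since those markers were higher in Pd1cKO-Tie2. The share of called genes that were higher was then 13.9%, against 35.0% with TMM. With TMM it also moved with the libraries, to 19.7% without Pd1cKO-Tie2 library 1 and to 55.6% without Pd1fl/fl library 2. With endothelial scaling called members fell from 1 to 0, and the median difference of the 10 genes was -0.046. On that scale Plvap, Cavin1, Cav1 and Ehd2 kept a difference above 0, Tfrc, Ehd4 and Cav2 kept one below 0, and Cavin2, Cavin3 and Pacsin2 turned from above to below 0. Set against the shifted median of all genes, the 10 genes lay between -0.27 (Tfrc) and 1.74 (Plvap). Cldn5 alone gave a large part of the marker sums behind this scaling. In Pd1fl/fl it gave 5505 and 4764 of 12556 and 11526 CPM, and in Pd1cKO-Tie2 6548 and 6993 of 14942 and 15909 CPM. The study reports less staining for its protein in Pd1cKO-Tie2 vessels.

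**Figure D3:**
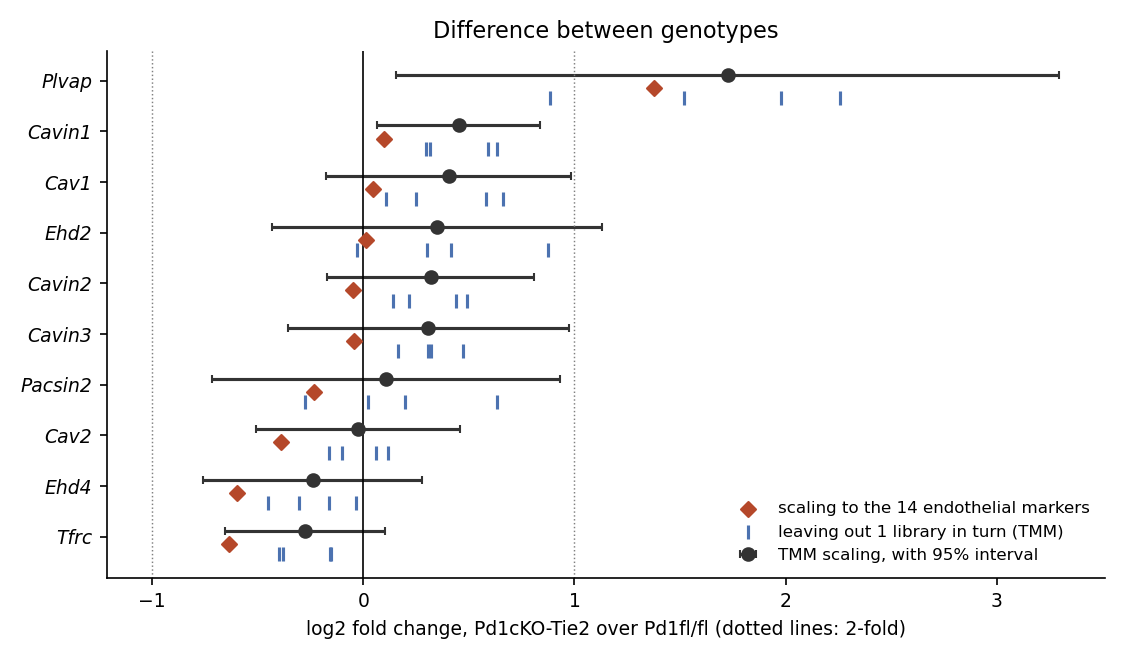
Fitted log2 fold change of Pd1cKO-Tie2 over Pd1fl/fl for each gene, with black points and 95% intervals for TMM scaling (edgeR), red diamonds for scaling to the endothelial markers, and blue ticks for fits that leave out 1 library. The interval of Plvap, 0.16 to 3.30, and of Cavin1, 0.06 to 0.84, lie above 0, and the intervals of the other 8 genes span 0.

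Plvap (ENSMUSG00000034845, chromosome 8 of GRCm38 from 71497765 to 71511752, minus strand) encodes the protein that forms the diaphragms of caveolae and fenestrae and is used as a sign of an open, non-barrier endothelium. It had 62 and 84 counts in Pd1fl/fl libraries 1 and 2, and 583 and 128 counts in Pd1cKO-Tie2 libraries 1 and 2. Scaled to depth this was 4.29 and 5.90 CPM against 24.3 and 9.36 CPM. The genotypes did not overlap, and the gap between the Pd1cKO-Tie2 libraries themselves, 2.60-fold, was wider than that between the Pd1fl/fl libraries, 1.38-fold. The fitted difference was 3.31-fold (95% interval 1.11 to 9.82), with a log2 difference of 1.73 and an SE of 0.63 (unadjusted p under 0.05, adjusted p = 0.753, edgeR). Over the alternatives its adjusted p ran from 0.441 to 0.934. Its place among all tested genes was at the 37.1 and 43.5 percentile in Pd1fl/fl and at the 76.2 and 56.0 percentile in Pd1cKO-Tie2.

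The call on Plvap rested on single libraries. Without Pd1cKO-Tie2 library 1 the log2 difference was 0.88 and without Pd1fl/fl library 1 it was 1.52, and its unadjusted p was above 0.05 in both fits, so it was called in neither, while without Pd1fl/fl library 2 or Pd1cKO-Tie2 library 2 it was called at 1.98 and 2.26. Scaled to the endothelial markers it was 1.38 with an SE of 0.67 and was not called, and per 1000 CPM of those markers Plvap stood at 0.342 and 0.512 in Pd1fl/fl against 1.63 and 0.588 in Pd1cKO-Tie2, still without overlap. Vessels of the choroid plexus are known to carry Plvap at high level. Of the 6 epithelial markers of that tissue, 3 are not listed in the tables, and the other 3 summed to 10.5, 3.30, 8.60 and 3.36 CPM in the order given above. Among them Ttr was at 1.04, 0, 4.13 and 0 CPM, Clic6 at 9.48, 3.30, 0.919 and 3.36 CPM, and Otx2 at 0, 0, 3.55 and 0 CPM. Otx2 thus had counts only in the library where Plvap was highest, and Ttr was also highest there, while Clic6 was lowest there. The part of choroid plexus tissue in the Plvap difference was not tested.

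**Figure D4:**
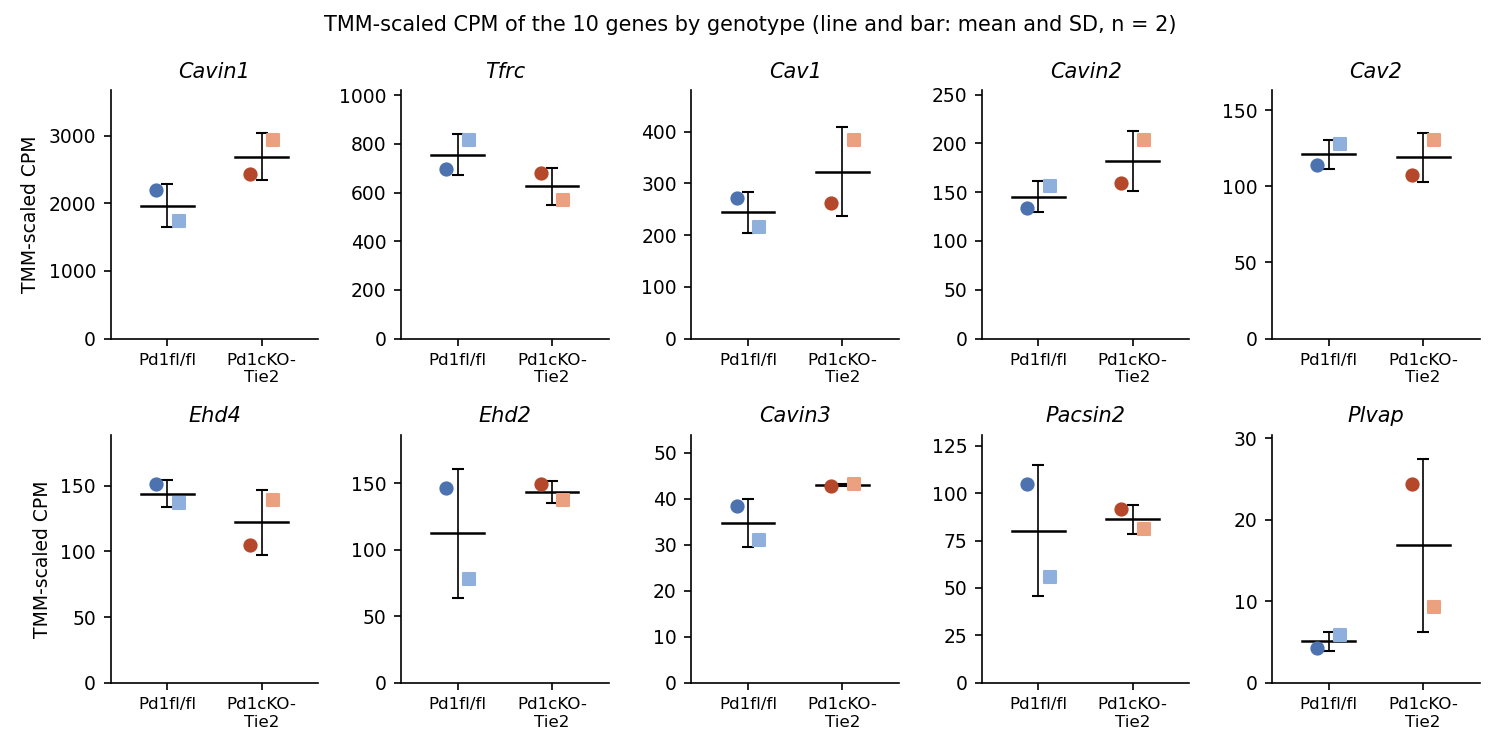
TMM-scaled CPM of each gene by genotype on linear axes from 0, with circles for library 1, squares for library 2, and lines and bars for the mean and SD of n = 2. Plvap was 5.10 ± 1.14 in Pd1fl/fl against 16.9 ± 10.6 CPM in Pd1cKO-Tie2, and Cavin1 1967 ± 320 and 2691 ± 350 CPM.

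The cavins coat the caveolar bulb. Cavin1 (ENSMUSG00000004044, chromosome 11 from 100956733 to 100970887, minus strand), without which caveolae do not form, stood at 2194 and 1741 CPM in Pd1fl/fl and at 2443 and 2938 CPM in Pd1cKO-Tie2. Every Pd1cKO-Tie2 value lay above every Pd1fl/fl value. The log2 difference was 0.45 with an SE of 0.16 and an interval of 0.06 to 0.84 (unadjusted p under 0.05, adjusted p = 0.738, edgeR), which is 1.37-fold and under the study's fold. Over the alternatives the adjusted p ran from 0.195 to 0.934. The unadjusted p was above 0.05 without Pd1fl/fl library 2 (log2 difference 0.30) and without Pd1cKO-Tie2 library 2 (0.32), and under 0.05 without Pd1fl/fl library 1 (0.63) and without Pd1cKO-Tie2 library 1 (0.59). Scaled to the endothelial markers it was 0.10 with an SE of 0.11, and the unadjusted p was above 0.05. Per 1000 CPM of those markers Cavin1 stood at 175 and 151 in Pd1fl/fl and at 164 and 185 in Pd1cKO-Tie2, so the genotypes overlapped.

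Cavin2 (ENSMUSG00000045954, chromosome 1 from 51289126 to 51302960, plus strand), which gives the coat its curvature, stood at 134 and 157 CPM in Pd1fl/fl and at 160 and 203 CPM in Pd1cKO-Tie2. The groups did not overlap, though the nearest pair of libraries differed by little, and the log2 difference of 0.32 with an SE of 0.20 did not pass the test (adjusted p = 0.944, edgeR). Cavin3 (ENSMUSG00000037060, chromosome 7 from 105480083 to 105482300, minus strand), which binds protein kinase C delta, stood at 38.3 and 31.1 CPM in Pd1fl/fl and at 42.8 and 43.1 CPM in Pd1cKO-Tie2. Here too the groups did not overlap, and the log2 difference was 0.31 with an SE of 0.27 (adjusted p = 0.999, edgeR). Its exons share 374 bases with Gm45667 on the other strand, and since the use of strand in counting is not given in the sources used here, reads there cannot be assigned to one of them. Both genes had a difference just under 0 with endothelial scaling, -0.049 for Cavin2 and -0.044 for Cavin3, and their values per 1000 CPM of the markers overlapped between genotypes.

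The caveolins are the membrane-inserted scaffold of the pit, and Cav2 needs Cav1 to reach the cell surface. Both genes lie on the plus strand of chromosome 6, Cav2 (ENSMUSG00000000058) from 17281185 to 17289115 and Cav1 (ENSMUSG00000007655) from 17306335 to 17341452, so that 17219 bases separate the end of Cav2 from the start of Cav1. The 2 genes are adjacent and stood at different levels, so the 250 bases before each start are shown (RefSeq, GRCm38.p6, plus strand), chr6:17280935-17281184 for Cav2 and chr6:17306085-17306334 for Cav1, with capitals for the GC box (GGGCGG) and the CCAAT box, searched on both strands:
Cav2: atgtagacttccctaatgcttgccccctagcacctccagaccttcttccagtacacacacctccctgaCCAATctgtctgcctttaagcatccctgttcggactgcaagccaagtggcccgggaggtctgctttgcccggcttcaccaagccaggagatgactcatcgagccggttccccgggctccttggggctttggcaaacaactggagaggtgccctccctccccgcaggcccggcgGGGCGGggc
Cav1: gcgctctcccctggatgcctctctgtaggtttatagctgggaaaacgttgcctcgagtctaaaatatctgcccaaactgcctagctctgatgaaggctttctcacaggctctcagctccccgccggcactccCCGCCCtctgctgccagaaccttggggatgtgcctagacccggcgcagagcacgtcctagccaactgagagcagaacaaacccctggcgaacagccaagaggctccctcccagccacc

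Both stretches hold 1 GC box, on the plus strand in Cav2 and on the minus strand in Cav1. The CCAAT box was found only in that of Cav2, and a TATA motif (TATAAA) only in that of Cav1, on either strand. RefSeq promoters were at hand for 8 of the 10 genes, and not for Plvap and Cavin3. Where several starts are listed for any of the 8, only the first was searched, while the mouse promoters set beside them below count every listed start. The GC box was found in 6 of these 8 and in 32.7% of 32851 mouse promoters of the same length, and the CCAAT box in 7 of 8 and in 33.8%. TATAAA was found in 1 of 8, Cav1, and in 12.4% of all. The ETS core CCGGAA (12.03% of all), the GATA motif AGATAA (9.99%), the TCF/LEF motif CTTTGA (13.8%) and the E-box CACGTG (6.02%) were found in 0 of 8, on either strand. No motif searched contains another. These are matches of letters in a short window, and say nothing of which factor binds.

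Cav1 stood at 271 and 216 CPM in Pd1fl/fl and at 262 and 383 CPM in Pd1cKO-Tie2. The high value came from Pd1cKO-Tie2 library 2, and library 1 of that genotype lay between the Pd1fl/fl libraries. The log2 difference was 0.40 with an SE of 0.23 and an interval of -0.18 to 0.98, which did not pass the test (adjusted p = 0.925, edgeR). It was 0.66 without Pd1cKO-Tie2 library 1, where the unadjusted p was under 0.05, and 0.11 without Pd1cKO-Tie2 library 2. Without Pd1fl/fl library 1 it was 0.58, and with endothelial scaling 0.04. Cav2 showed little difference between the genotype means, with 114 and 128 CPM in Pd1fl/fl against 108 and 130 CPM in Pd1cKO-Tie2. Its log2 difference was -0.02 with an SE of 0.20, with an interval of -0.51 to 0.46, which is 0.703-fold to 1.38-fold. With endothelial scaling it was -0.39 with an SE of 0.20 and an unadjusted p above 0.05 (edgeR). The median of all tested genes was then -0.36. Per 1000 CPM of the endothelial markers Cav2 stood at 9.10 and 11.1 in Pd1fl/fl against 7.21 and 8.20 in Pd1cKO-Tie2, without overlap. Per kb, Cav1 was 2.30 and 1.64 times Cav2 in Pd1fl/fl against 2.35 and 2.85 times Cav2 in Pd1cKO-Tie2. This ratio did not overlap between the genotypes, and its exact two-sided permutation p was 0.333, the smallest that 2 against 2 libraries allow (1 after adjustment over the 9 ratios between members that were compared). The value of Pd1cKO-Tie2 library 1 was close to that of Pd1fl/fl library 1.

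The proteins of the caveolar neck gave mixed and mostly overlapping values. Ehd2 (ENSMUSG00000074364, chromosome 7 from 15946958 to 15967567, minus strand), an ATPase that rings the neck and holds caveolae at the surface, stood at 146 and 78.2 CPM in Pd1fl/fl and at 149 and 137 CPM in Pd1cKO-Tie2. Only Pd1fl/fl library 2 was low, and the 3 others lay close together. The log2 difference was 0.35 with an SE of 0.32 (adjusted p = 0.9998, edgeR), and the Pd1fl/fl libraries differed from each other by 1.87-fold. It was 0.88 without Pd1fl/fl library 1, with an unadjusted p under 0.05, and -0.029 without Pd1fl/fl library 2, so its sign and size hung on which Pd1fl/fl library was kept.

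Pacsin2 (ENSMUSG00000016664, chromosome 15 from 83375607 to 83464606, minus strand), an F-BAR protein that bends the membrane into the neck, showed the same split. It stood at 105 and 55.7 CPM in Pd1fl/fl and at 91.6 and 80.9 CPM in Pd1cKO-Tie2, both of which lay between the Pd1fl/fl values. The log2 difference was 0.11 with an SE of 0.33 (adjusted p = 0.9998, edgeR). It was 0.64 without Pd1fl/fl library 1 and -0.28 without Pd1fl/fl library 2. With endothelial scaling it was -0.23. Ehd4 (ENSMUSG00000027293, chromosome 2 from 120089175 to 120154606, minus strand), a relative of Ehd2 that also works on endosomes, stood at 151 and 137 CPM in Pd1fl/fl and at 105 and 139 CPM in Pd1cKO-Tie2. Its low value was that of Pd1cKO-Tie2 library 1, and the log2 difference was -0.24 with an SE of 0.21 (adjusted p = 0.9998, edgeR). Per 1000 CPM of the endothelial markers Ehd4 was 12.02 and 11.86 in Pd1fl/fl against 7.01 and 8.75 in Pd1cKO-Tie2, without overlap, and with that scaling its log2 difference was -0.60 with an SE of 0.19, with an unadjusted p under 0.05 and an adjusted p of 0.400 (edgeR), against a median of all tested genes of -0.36. The ratio of Ehd2 to Ehd4 per kb was 0.760 and 0.448 in Pd1fl/fl against 1.12 and 0.772 in Pd1cKO-Tie2, which did not overlap (exact two-sided permutation p = 0.333, 1 after adjustment over the same 9 ratios).

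Tfrc (ENSMUSG00000022797, chromosome 16 of GRCm38 from 32608920 to 32632794, plus strand) encodes the receptor that takes up iron-loaded transferrin. Its RNA is known to be stabilised when iron is scarce, through stem-loops in its 3′ UTR that iron regulatory proteins bind. In its longest transcript of 4890 bases, whose 3′ UTR runs from base 2433 to its end, 4 different stretches of 17 bases had the letters of such an element, a C, a stem of 5 pairs and the loop CAGTGN (loop in capitals). They are shown because such elements are known to tie the level of Tfrc RNA to iron:
Tfrc element 1: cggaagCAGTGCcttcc
Tfrc element 2: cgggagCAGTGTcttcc
Tfrc element 3: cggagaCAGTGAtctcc
Tfrc element 4: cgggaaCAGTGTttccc

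The elements lie at chr16:32631225-32631241, chr16:32631604-32631620, chr16:32631669-32631685 and chr16:32631716-32631732 (GRCm38, plus strand). Tfrc was the only 1 of 21519 genes searched whose transcripts held at least 4 different ones, and 243 genes (1.13%) held at least 1. The ferritin genes Fth1 and Ftl1 and the iron exporter Slc40a1 each held 1, and Slc11a2, another iron-handling gene, held 0. Where the elements of Fth1, Ftl1 and Slc40a1 lie in their transcripts was not looked up.

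Tfrc stood at 697 and 815 CPM in Pd1fl/fl and at 679 and 570.5 CPM in Pd1cKO-Tie2. It was the only member whose Pd1cKO-Tie2 libraries both lay below both Pd1fl/fl libraries, though Pd1cKO-Tie2 library 1 and Pd1fl/fl library 1 were close. The log2 difference was -0.28 with an SE of 0.15 and an interval of -0.65 to 0.10, which did not pass the test (adjusted p = 0.914, edgeR). Leaving out 1 library gave values between -0.40 and -0.15. Per 1000 CPM of the endothelial markers Tfrc stood at 55.5 and 70.8 in Pd1fl/fl and at 45.5 and 35.9 in Pd1cKO-Tie2, and with endothelial scaling the log2 difference was -0.63 with an SE of 0.18, with an unadjusted p under 0.05 and an adjusted p of 0.400 (edgeR). The median of all tested genes was then -0.36, and set against it Tfrc lay at -0.27. Over the alternatives the adjusted p of Tfrc and of Ehd4 had 0.400 as its lowest value. Erythroid precursors are rich in Tfrc, and the 9 listed erythroid markers summed to 647 and 558 CPM in Pd1fl/fl and to 574 and 1069 CPM in Pd1cKO-Tie2, overlapping between the genotypes. The 10 cell cycle markers summed to 389 and 417 CPM in Pd1fl/fl and to 359 and 292 CPM in Pd1cKO-Tie2. Of these 10, 9 had a log2 difference below 0, with a median of -0.50. Without overlap 4 were lower, as were 18.1% of all tested genes. The part of erythroid or of dividing cells in the Tfrc difference was not tested.

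Genes that work beside these 10 were followed in 5 lists of 84 genes in all, of which 82 are listed in the tables and 80 were tested. By the study's criterion 0 of the 80 were called in edgeR, and 5 were higher and 2 lower with an unadjusted p of 0.05 or less. Over all tested genes 4.02% were called and 6.39% were at that p, and the count over the lists was not tested against these shares. With endothelial scaling 0 of the 80 were higher and 9 lower at that p. Their median was then -0.25, where the median of all tested genes was -0.36, and the share of all genes at that p on that scale is not given here. The other caveola genes (12 tested) had a median log2 difference of 0.22, with 1 higher and 1 lower at that p. Mfsd2a, the transporter that holds back caveolar transcytosis at the barrier, stood at 1092 and 1052 CPM in Pd1fl/fl and at 1325 and 1282 CPM in Pd1cKO-Tie2, without overlap (log2 difference 0.28, SE 0.11, adjusted p = 0.753, edgeR). Ehd3, a relative of Ehd2 that acts on endosomes, stood at 82.2 and 48.8 against 39.5 and 31.4 CPM (-0.88, SE 0.34, adjusted p = 0.753, edgeR). The difference of Mfsd2a was thus above 0, as were those of Cavin1 and Plvap, and under the median of the endothelial markers, 0.36. With endothelial scaling the difference of Mfsd2a turned to -0.075. That of Ehd3 was then -1.22 (unadjusted p of 0.05 or less, adjusted p = 0.400, edgeR). Without Pd1fl/fl library 1 the differences were 0.31 for Mfsd2a and -0.46 for Ehd3. Over the 5 lists, with 81 genes tested, the median was then 0.15, where the median of all tested genes was 0.03.

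Clathrin carries the transferrin receptor into the cell. Of 20 genes of clathrin-mediated endocytosis tested, 1 was higher and 0 lower at a p of 0.05 or less, and the median was -0.02. Bin1, a membrane-bending protein, stood at 63.5 and 72.1 CPM in Pd1fl/fl and at 124 and 100.1 CPM in Pd1cKO-Tie2 (log2 difference 0.73, SE 0.22, adjusted p = 0.735, edgeR). Its difference without Pd1fl/fl library 1 was 0.64, with an unadjusted p above 0.05. With endothelial scaling the difference of Bin1 was 0.37, with an unadjusted p above 0.05 (edgeR). The adaptor Eps15 stood at 153 and 129 against 171 and 182 CPM (0.32, adjusted p = 0.911, edgeR). Among 15 transcytosis receptors tested, 0 were higher and 1 lower, with a median of 0.24. Lrp1, a receptor for lipoproteins and amyloid that pericytes and microglia also express, stood at 180 and 151 against 86.1 and 108 CPM (-0.77, SE 0.21, adjusted p = 0.735, edgeR). Its difference was -0.63 without Pd1fl/fl library 1. With endothelial scaling it was -1.13 (unadjusted p of 0.05 or less, adjusted p = 0.400, edgeR), where the median of all tested genes was -0.36. The microglial sums given above were also lower, and the part of pericytes and microglia was not tested. Acvrl1, a TGF-beta family receptor that also takes up LDL for transcytosis, stood at 129 and 139 against 169 and 182 CPM (0.39, adjusted p = 0.807, edgeR).

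Of 20 genes of endosomes and vesicle fusion, 1 was higher and 0 lower, with a median of 0.13. Rab5c, a GTPase of early endosomes, stood at 102 and 91.7 against 170.0 and 129 CPM (0.63, SE 0.21, adjusted p = 0.735, edgeR), and its relative Rab5a stood at 38.3 and 39.4 against 48.6 and 56.6 CPM (0.44, adjusted p = 0.922). The difference of Rab5c was 0.71 without Pd1fl/fl library 1. With endothelial scaling it was 0.28, with an unadjusted p above 0.05 (edgeR). Of 13 iron-handling genes tested beside Tfrc, 2 were higher and 0 lower, with a median of 0.04. The metal importer Slc39a8 stood at 1487 and 1345 against 1793 and 2292 CPM (0.53, SE 0.15, adjusted p = 0.735, edgeR). The ferritin heavy chain Fth1, whose RNA carries an iron element of its own, stood at 11734 and 10251 against 12664 and 15583 CPM (0.36, SE 0.12, adjusted p = 0.738, edgeR). Without Pd1fl/fl library 1 the differences of Slc39a8 and Fth1 were 0.61 and 0.47. With endothelial scaling the differences of Slc39a8 and Fth1 were 0.17 and 0.0024, with an unadjusted p above 0.05 for both (edgeR). Ftl1 and Slc40a1, which also hold an iron element, were at 0.02 and 0.10, with adjusted p = 0.9998 for both (edgeR).

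**Figure D5:**
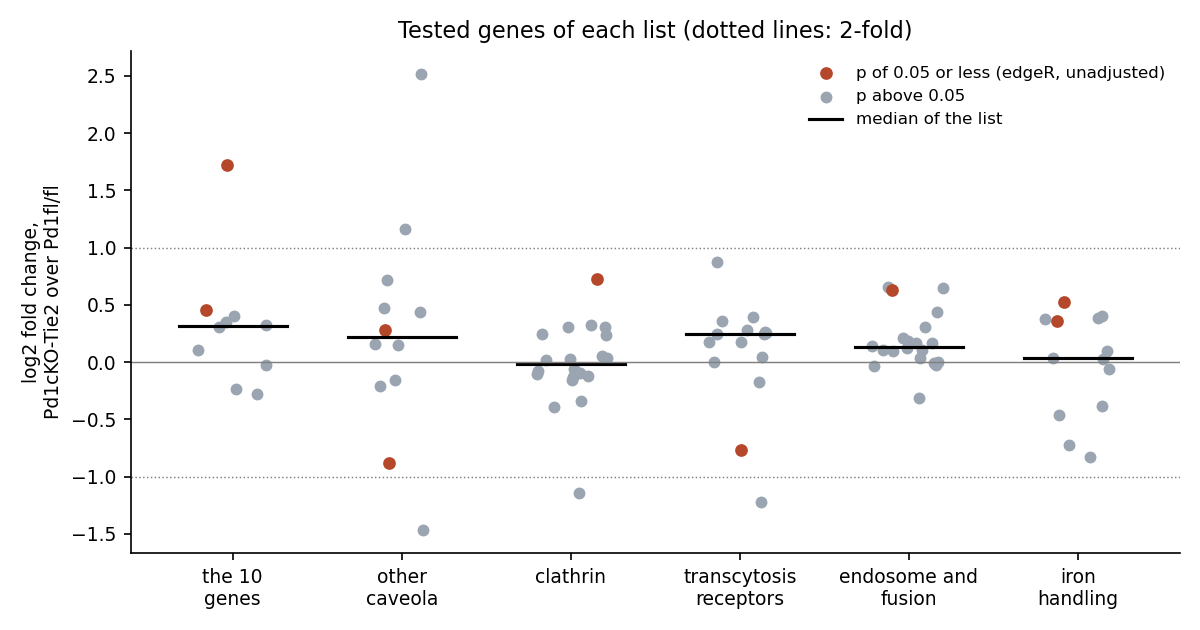
Fitted log2 fold change of Pd1cKO-Tie2 over Pd1fl/fl for the tested genes of each list, with red for an unadjusted p of 0.05 or less (edgeR) and a line at the list's median. The medians run from -0.02 for clathrin genes to 0.31 for the 10 genes, and of all red points only Plvap, at 1.73, passes the 2-fold lines.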

How the data were processed

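RNA was sequenced by the authors on an Illumina platform, and the deposited tables hold, per gene, the counts of 2 libraries, their CPM, and the authors' comparison of each pair (fold changes and p-values), which were not used. The submitters' processing notes name Bowtie2 (version 2.2.3), TopHat2 (2.0.12), HTSeq (0.6.0) and mm9, but the deposited gene positions match GRCm38 (90.29% are identical in GENCODE M21). The deposited CPM served only to recover library totals, and the deposited counts were joined by gene identifier over 4 tables. In all, 10 broken lines were skipped, 0 counts differed between tables, and genes absent from a table were given 0 counts (at most 0.0107% of the reads of any library). The number on the second Pd1cKO-Tie2 column is in no sample label, so only its genotype is known, and library numbers follow the columns.

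The main test was edgeR's quasi-likelihood test (edgeR 4.0.16, R 4.3.3) with filterByExpr, TMM scaling and no covariate, adjusted by Benjamini-Hochberg over 15909 genes. A common biological coefficient of variation of 0.610 was estimated. By the study's own criterion, a called gene had an unadjusted p of at most 0.05 and differed by at least 2-fold. Alternatives were DESeq2 1.42.0, limma-voom (limma 3.58.1), edgeR's likelihood ratio test, other filters and scalings, and leaving out each library. The quasi-likelihood test and DESeq2 were tested on simulated counts, and the other alternatives were not. Ratios were compared with an exact permutation test (scipy 1.17.1). Exon lengths and elements came from GENCODE M21 and promoters from RefSeq (Python 3.11.15). Named from each neighbouring list are the genes that pass the criterion or, failing that, the 2 with the smallest p, and Mfsd2a. The genes and lists were chosen with earlier results of these data known.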

Additional observations from a re-analysis of the deposited data

How the results depend on the processing

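Over 15 alternatives, 173 values kept their direction and their side of the criterion or moved by less than the limit set for them, 14 moved by more, 7 reversed and 3 lost the call. DESeq2 on all or on the filtered genes, limma-voom, the likelihood ratio test, no filter, a minimum of 10 counts per library, and RLE, upper quartile or library size scaling each called 1 of the 10 genes, Plvap, and 480 to 764 genes in all, except DESeq2 on all genes with 936. Scaling to the endothelial markers called 0 of the 10 and 994 in all. It moved the median of the 10 genes to -0.046 and Plvap to 1.38, no longer called, and it reversed Cavin2 (-0.049), Cavin3 (-0.044) and Pacsin2 (-0.23). By construction that scaling lowers every log2 difference. Other genes of the pathway, of which 0 were called with edgeR, gave 1 with DESeq2 on all genes (Lrp2), 1 with 10 counts in every library (Pacsin1) and 3 with endothelial scaling (Ehd3, Heph and Lrp1), named after their values were seen. Leaving out 1 library gave 0 or 1 called of the 10 genes, 0 to 2 of the pathway, and medians of 0.11 to 0.53. It gave 0.88 to 2.26 for Plvap. The sign changed for Cav2 (-0.16 to 0.12), Ehd2 (-0.029 to 0.88) and Pacsin2 (-0.28 to 0.64). The cause of these changes was not tested. The arm left with 1 library was assumed to vary like the other. No paired analysis was possible because the labels of the genotypes share only 1 replicate number. With 2 libraries per genotype the intervals are wide, and Plvap rests on 62 to 583 counts. A count of 0 allows up to 3 counts, or 0.124 to 0.219 CPM.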
